A study of Homo sapiens with 8 samples.

Results

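The heat shock and HSP90 chaperone genes described here are 33 listed genes for the cytosolic and mitochondrial folding machinery and its transcription factors. They were taken from a list of symbols, not by their values. Of the 33, 32 had a counted accession among 19305 in all, and 30 passed the filter on low counts and were tested among 14565 genes. HSPA14 is not analysed here, and HSPA1A and HSPA1L fell below the filter. The list holds 20 genes known as inducible by heat or arsenite, of which 19 were tested, and 13 known as constitutive, of which 11 were tested. That split comes from general knowledge of the genes and was not measured here.

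Polyadenylated RNA was sequenced in 2 libraries for each of 4 groups. HEK293T cells, a transformed line derived from human embryonic kidney, received an siRNA against eIF2A or a control siRNA, and both groups were exposed to sodium arsenite. H9 cells, a human embryonic stem cell line, carried an shRNA against eIF2A or a control shRNA, with no stressor named. The protein eIF2A is a translation initiation factor that can deliver initiator tRNA, and the series asks how protein synthesis persists under stress and in stem cells. The labels do not give an arsenite dose or time, or say whether the H9 cells were 1 clone or a pool. No HEK293T library without arsenite was analysed here, so the size of the arsenite response itself was not measured. Nothing in the labels ties the libraries of a group to separate cultures, and the p-values cover only how far these libraries vary, which can be technical variation.

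Cells exposed to heat or to arsenite, which attacks protein thiols, accumulate unfolded proteins. HSP90 and HSP70 proteins then leave the transcription factor HSF1, which forms trimers, binds inverted repeats of nGAAn called heat shock elements, and induces chaperone genes such as HSPA1A, HSPA1B, HSPA6, DNAJB1 and BAG3. HSP40 proteins bring clients to HSP70 and start its ATP hydrolysis, HSP110 and BAG proteins exchange its nucleotide, and STIP1 hands clients on to HSP90, which AHSA1, CDC37, PTGES3 and FKBP4 assist. HSPD1 and HSPE1 form the mitochondrial folding chamber.

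The libraries held 21837052 to 32318668 gene counts. EIF2A stood at 5.58 and 5.98 CPM (counts relative to library size, scaled by TMM) with the siRNA, against 17.5 and 18.3 CPM with the control siRNA in HEK293T. In H9 it stood at 5.03 and 4.67 CPM with the shRNA, against 15.8 and 14.8 CPM with the control shRNA. The 6 pluripotency markers POU5F1, SOX2, NANOG, LIN28A, DNMT3B and CRIPTO summed to 137 to 151 CPM in HEK293T. They summed to 4925 and 4995 CPM in H9 with eIF2A shRNA, against 5401 and 5442 CPM in the H9 controls. SOX2 went against that sum, at 113.5 and 117.6 CPM with eIF2A shRNA, against 86.5 and 80.6 CPM in the H9 controls. The 8 markers of other cells that a stem cell culture could hold summed to 728 and 734 CPM in H9 with eIF2A shRNA, against 903 and 909 CPM in the H9 controls. THY1, listed as a fibroblast marker but also expressed by stem cells, made up 592 and 594 CPM with eIF2A shRNA, against 788 and 794 CPM in the controls. COL1A1, another fibroblast marker, went the other way, at 118.4 and 123.5 CPM with eIF2A shRNA, against 88.7 and 87.7 CPM in the controls. COL3A1, also listed as a fibroblast marker, had 6 and 2 counts with eIF2A shRNA, against 7 and 3 counts in the controls, too few to read a difference. By edgeR at an adjusted p under 0.05, 1 of the 6 pluripotency markers was higher and 4 lower in H9. Of 5 other markers tested 1 was higher and 2 lower, where 37% of all genes were called higher and 34.3% lower. The part of these marker levels in the chaperone results was not tested. In such bulk libraries, fewer cells of a type and less RNA per cell cannot be told apart.

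Heat shock elements are the DNA sequences through which HSF1 acts, and the letters of 5 promoters that hold a long match are printed here. RefSeq promoter windows (GRCh38.p14, 250 bases before to 50 after each start site) were found for 29 of the 33 genes, in 42 windows. They were searched for 3 alternating units with any bases between them, GAANNTTCNNGAA or TTCNNGAANNTTC, which are each other's reverse complement, so both strands are covered. Matches may overlap. At least 1 match stood in 9 of 29 genes (31%): HSPA6, HSPA8, DNAJA1, DNAJB6, HSP90AA1, HSP90AB1, HSPD1, CHORDC1 and SERPINH1. Over all 27305 genes with a window the share was 0.608%, and over all 35116 windows it was 0.49%. The 2-unit form GAANNTTC stood in 15 of the 29 genes (51.7%), against 8.21% of all genes, and TTCNNGAA in 13 of 29 (44.8%), against 9.46% of all genes. Every 3-unit match contains both 2-unit forms. The windows of HSPA1A and HSPA1L overlap on opposite strands and share the same GAANNTTC match, so the genes with a match do not all hold separate elements. A match describes letters and is not a measured binding site. The windows for HSPA1B, BAG3 and DNAJB1 held no 3-unit match, which says only that these letters are not in this window. The windows below are for members that differ in regulation and in these data: the strictly inducible HSPA6, the inducible HSP90AA1, CHORDC1 and HSPD1, and HSPA8, known as constitutive. They are printed 5′ to 3′ on the gene's strand, with the 3-unit matches in capitals. They lie at chr1:161524290-161524589 (HSPA6, + strand), chr14:102086995-102087294 (HSP90AA1, - strand, 1 of 2 windows, the other of which holds no 3-unit match), chr11:90223000-90223299 (CHORDC1, - strand), chr2:197499791-197500090 (HSPD1, - strand, 1 of 2 windows, the other of which holds no 3-unit match) and chr11:123062087-123062386 (HSPA8, - strand).
HSPA6: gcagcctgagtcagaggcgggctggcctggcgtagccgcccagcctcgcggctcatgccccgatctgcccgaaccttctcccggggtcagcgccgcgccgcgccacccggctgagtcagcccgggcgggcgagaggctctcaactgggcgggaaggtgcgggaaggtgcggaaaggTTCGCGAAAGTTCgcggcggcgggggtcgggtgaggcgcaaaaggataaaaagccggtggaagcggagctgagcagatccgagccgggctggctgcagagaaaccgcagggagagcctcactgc
HSP90AA1: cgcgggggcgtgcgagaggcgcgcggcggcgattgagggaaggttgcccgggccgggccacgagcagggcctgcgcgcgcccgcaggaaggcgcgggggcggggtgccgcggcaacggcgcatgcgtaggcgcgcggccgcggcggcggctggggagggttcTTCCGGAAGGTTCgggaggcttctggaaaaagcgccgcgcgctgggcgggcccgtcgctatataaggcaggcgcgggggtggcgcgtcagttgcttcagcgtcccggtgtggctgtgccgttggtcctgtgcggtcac
CHORDC1: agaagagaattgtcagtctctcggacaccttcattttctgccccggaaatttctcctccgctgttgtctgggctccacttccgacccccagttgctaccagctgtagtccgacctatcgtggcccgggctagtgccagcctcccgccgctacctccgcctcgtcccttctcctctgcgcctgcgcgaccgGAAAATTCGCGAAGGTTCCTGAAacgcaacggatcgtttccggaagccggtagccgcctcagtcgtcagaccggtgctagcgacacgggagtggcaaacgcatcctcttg
HSPD1: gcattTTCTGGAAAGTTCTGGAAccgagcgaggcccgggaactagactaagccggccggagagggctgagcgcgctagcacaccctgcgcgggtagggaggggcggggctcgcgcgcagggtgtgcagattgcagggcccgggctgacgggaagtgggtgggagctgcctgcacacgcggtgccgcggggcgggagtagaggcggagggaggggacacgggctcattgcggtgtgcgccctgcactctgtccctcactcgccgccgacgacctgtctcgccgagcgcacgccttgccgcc
HSPA8: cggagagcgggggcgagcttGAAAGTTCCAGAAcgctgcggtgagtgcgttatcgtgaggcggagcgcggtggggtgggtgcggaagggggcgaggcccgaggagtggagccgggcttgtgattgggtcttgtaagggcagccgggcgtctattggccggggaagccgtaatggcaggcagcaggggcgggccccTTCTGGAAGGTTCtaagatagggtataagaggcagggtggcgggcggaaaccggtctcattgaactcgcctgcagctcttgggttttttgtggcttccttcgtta

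The first match began at position -74 from the start site in HSPA6, -88 in HSP90AA1, -60 in CHORDC1, -245 in HSPD1 and -230 in HSPA8. HSPD1 and HSPE1 lie head to head on opposite strands of chromosome 2. From the HSPD1 start site of the printed window to the HSPE1 start site the distance is 539 bases, and the first HSPD1 match lies 294 bases before the HSPE1 start site. The HSPD1 start site of the other window is 105 bases from that of HSPE1.

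Levels differed widely between members. Per kilobase of transcript, HSPA8, the housekeeping cytosolic HSP70, and HSP90AB1, the constitutive cytosolic HSP90, were the most abundant in every group. HSPA8 averaged 1116 ± 18.7 CPM per kb with eIF2A siRNA and 1006 ± 72.1 CPM per kb with control siRNA in HEK293T (SD, n = 2 each). It averaged 951 ± 0.105 CPM per kb with eIF2A shRNA and 858 ± 6.65 CPM per kb with control shRNA in H9 (SD, n = 2 each). HSP90AB1 averaged 681 ± 1.28 CPM per kb with eIF2A siRNA and 653 ± 9.21 CPM per kb with control siRNA in HEK293T (SD, n = 2 each). In H9 it averaged 985 ± 15.8 CPM per kb with eIF2A shRNA and 747 ± 8.45 CPM per kb with control shRNA (SD, n = 2 each). HSPA8 thus stood above HSP90AB1 in 3 groups, whereas in H9 with eIF2A shRNA HSP90AB1 averaged the higher value. The inducible HSP90AA1 lay far below its constitutive paralog, at 48.1 ± 0.614 CPM per kb with eIF2A siRNA and 60.7 ± 3.68 CPM per kb with control siRNA in HEK293T (SD, n = 2 each).

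The strictly inducible HSP70 genes were low in these counts. HSPA1A had at most 1 count in a library. HSPA1L, a mostly testis-expressed relative, had 0 counts in the 4 HEK293T libraries and 0 to 4 counts in the H9 libraries. A floor of 3 counts corresponds to 0.0943 to 0.148 CPM per library, for counting error only. HSPA1A and HSPA1B are nearly identical and reads aligned to more than 1 place were set aside, so their counts leave out shared reads and are not the genes' full levels. Members with pseudogenes or close copies, among them HSPA6, HSP90AB1, HSPA8, HSPD1 and HSPE1, are less certain for the same reason. That list may not be complete.

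**Figure D1:**
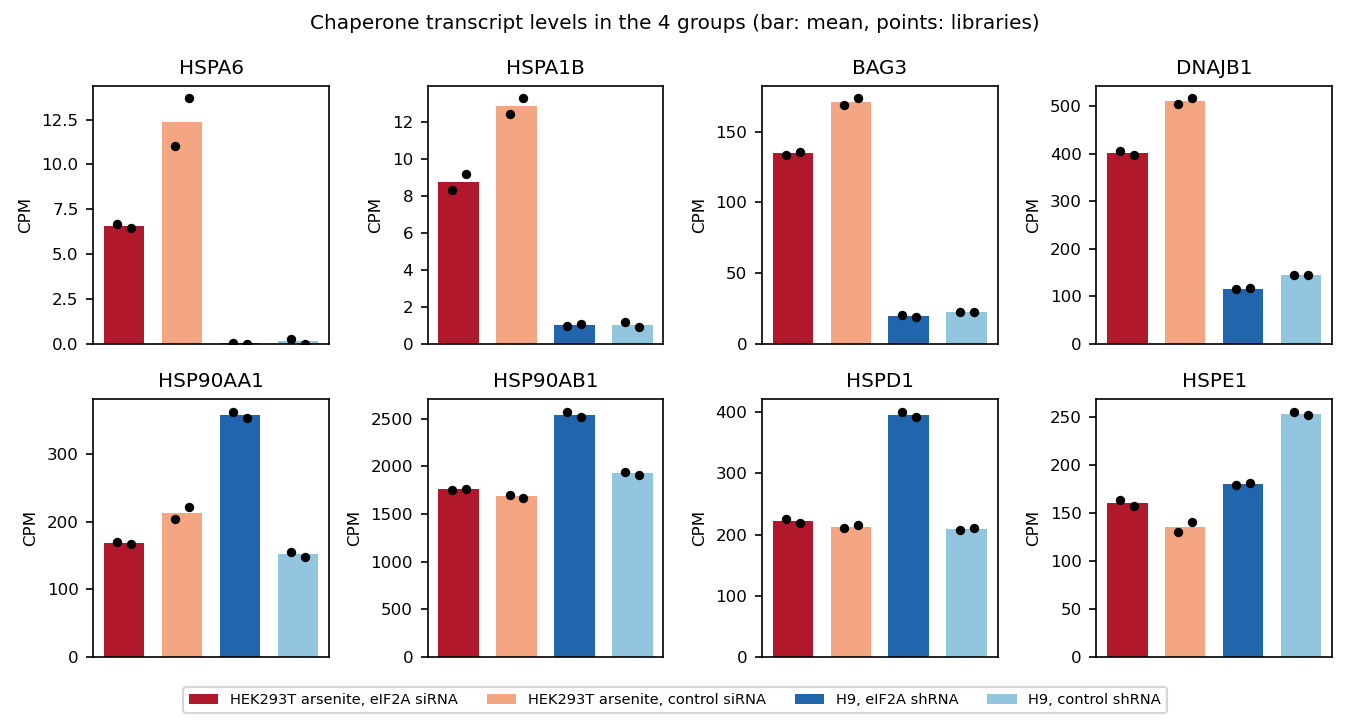
Levels (CPM, linear axis from 0, 1 panel per gene) of selected chaperone transcripts in each of the 4 groups; bars are group means and points are the 2 libraries of a group. HSP90AA1 was lower with eIF2A siRNA than with control siRNA in HEK293T and higher with eIF2A shRNA than with control shRNA in H9.

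The HEK293T libraries, all under arsenite, address how chaperone transcripts stand when eIF2A is depleted during stress. Of the 30 tested members, 9 rose and 9 fell at an adjusted p under 0.05. Over all tested genes 14.1% were called higher and 14.7% lower, or 28.7% in either direction. The members' median log2 fold change was 0.03, against 0.00 over all genes. The classes differed in their counts: 8 of 19 inducible genes fell and 4 rose (median -0.13), and 1 of 11 constitutive genes fell and 5 rose (median 0.15).

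The genes with the largest falls are textbook HSF1 targets. HSPA6, a strictly inducible HSP70, had 6.66 and 6.43 CPM with eIF2A siRNA, against 11.02 and 13.7 CPM with control siRNA. Both eIF2A siRNA libraries lay below both controls, and the level stood at 52.4% of the control (log2 fold change -0.93 ± 0.12 SE, adjusted p = 2.6e-07). HSPA1B, the stress-inducible cytosolic HSP70, had 8.33 and 9.19 CPM with eIF2A siRNA, against 12.5 and 13.3 CPM with control siRNA. The groups did not overlap, and HSPA1B stood at 67.8% of the control (log2 fold change -0.56 ± 0.097 SE, adjusted p = 2.5e-05).

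The cochaperones of inducible HSP70 fell less far. DNAJB1, the HSP40 partner of HSP70 in the heat shock response, had 406 and 398 CPM with eIF2A siRNA, against 504 and 517 CPM with control siRNA. BAG3, a nucleotide exchange factor that directs clients to selective autophagy, had 133 and 136 CPM with eIF2A siRNA, against 169 and 174 CPM with control siRNA. Neither gene's groups overlapped: the log2 fold change was -0.34 ± 0.031 SE for DNAJB1 (adjusted p = 1.6e-10) and -0.35 ± 0.038 SE for BAG3 (adjusted p = 9.5e-09). HSPH1, an HSP110 exchange factor, had 20.5 and 20.7 CPM with eIF2A siRNA, against 23.2 and 23.7 CPM with control siRNA. Its fall was small (log2 fold change -0.19 ± 0.065 SE, adjusted p = 0.028) and the call was lost with DESeq2 (adjusted p = 0.13). HSPH1 was also not called in the 4 HEK293T libraries alone. The call was lost too without eIF2A siRNA replicate 1 (log2 fold change -0.18), eIF2A siRNA replicate 2 (-0.19) or control siRNA replicate 2 (-0.17).

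In the HSP90 system, HSP90AA1, the inducible HSP90, had 170 and 167 CPM with eIF2A siRNA, against 204 and 222 CPM with control siRNA. The groups did not overlap (log2 fold change -0.34 ± 0.037 SE, adjusted p = 1.3e-08). HSP90AB1, its constitutive paralog, had 1756 and 1761 CPM with eIF2A siRNA, against 1703 and 1670 CPM with control siRNA, and did not pass the test (log2 fold change 0.06, adjusted p = 0.11). The ratio of HSP90AA1 to HSP90AB1 counts was 0.0970 and 0.0950 with eIF2A siRNA, against 0.120 and 0.133 with control siRNA. CHORDC1, an HSP90 cochaperone that is itself heat inducible, had 18.2 and 17.6 CPM with eIF2A siRNA, against 19.6 and 21.8 CPM with control siRNA. Its groups were separate by a small margin (log2 fold change -0.22 ± 0.074 SE, adjusted p = 0.024) and the call was lost with DESeq2 (adjusted p = 0.16). CHORDC1 was also not called without eIF2A siRNA replicate 1 (log2 fold change -0.24), eIF2A siRNA replicate 2 (-0.19) or control siRNA replicate 2 (-0.13). CDC37, which loads kinases onto HSP90, had 627.6 and 610.1 CPM with eIF2A siRNA, against 627.7 and 704.5 CPM with control siRNA. Its fall of -0.11 ± 0.038 SE on the log2 scale (adjusted p = 0.032) was called when control siRNA replicate 1 was left out, at -0.18, and lost when any other single library was. Without control siRNA replicate 2 the value was -0.02, and without another library -0.13 to -0.08. With the set number as a block the adjusted p of CDC37 was 0.052. CDC37 was also not called with DESeq2, in the 4 HEK293T libraries alone or after removal of a trend with GC content and length (-0.07). HSPB1, a small heat shock protein, had a log2 fold change of -0.13 ± 0.042 SE (adjusted p = 0.021). It was not called with DESeq2, in the 4 HEK293T libraries alone or after removal of a trend with GC content and length (-0.10). The call was also lost without eIF2A siRNA replicate 1 (-0.12), eIF2A siRNA replicate 2 (-0.13) or control siRNA replicate 2 (-0.06).

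Of the 9 members that rose, 5 were constitutive. DNAJA2, an HSP40 that supports refolding by HSP70, had 84.3 and 83.2 CPM with eIF2A siRNA, against 57.9 and 61.3 CPM with control siRNA. This was the largest rise, to 140% of the control (log2 fold change 0.49 ± 0.045 SE, adjusted p = 3e-10). HSPA4, a constitutive HSP110 exchange factor, had 77.3 and 73.4 CPM with eIF2A siRNA, against 60.0 and 61.0 CPM with control siRNA (log2 fold change 0.32 ± 0.044 SE, adjusted p = 8.8e-07). PTGES3, the HSP90 cochaperone p23, had 302 and 299 CPM with eIF2A siRNA, against 249 and 253 CPM with control siRNA (log2 fold change 0.26 ± 0.032 SE, adjusted p = 9.4e-08).

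DNAJB6, an HSP40 that suppresses protein aggregation, had 144 and 138 CPM with eIF2A siRNA, against 118 and 122 CPM with control siRNA (log2 fold change 0.23 ± 0.038 SE, adjusted p = 1.1e-05). HSPA8 rose by less: it had 2780 and 2715 CPM with eIF2A siRNA, against 2352 and 2603 CPM with control siRNA (log2 fold change 0.15 ± 0.033 SE, adjusted p = 0.00072). The value of HSPA8 was 0.08 without control siRNA replicate 1 and 0.23 without control siRNA replicate 2, both called. The groups of these 5 constitutive genes did not overlap, nor did those of HSPA2 and HSP90AB1, which were not called. The share of all genes with separate groups is not given here. The inducible genes that rose were HSPB8, HSPE1, SERPINH1 and DNAJA1. HSPB8, a small heat shock protein that works with BAG3, had 12.7 and 11.96 CPM with eIF2A siRNA, against 10.0 and 10.5 CPM with control siRNA. BAG3 and HSPB8 thus changed in opposite directions, although the rise of HSPB8 (log2 fold change 0.26 ± 0.086 SE, adjusted p = 0.021) was not called with DESeq2, without control siRNA replicate 1 (0.23) or without eIF2A siRNA replicate 1 (0.22). HSPE1, the mitochondrial HSP10, had 163 and 157 CPM with eIF2A siRNA, against 131 and 140 CPM with control siRNA (log2 fold change 0.24 ± 0.037 SE, adjusted p = 4.8e-06). SERPINH1, the collagen chaperone HSP47 of the endoplasmic reticulum, rose by 0.18 on the log2 scale, and DNAJA1, a farnesylated HSP40, by 0.14. DNAJA1 was not called with DESeq2 (adjusted p = 0.054), without eIF2A siRNA replicate 2 (log2 fold change 0.13) or after removal of a trend with GC content and length (0.09).

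The remaining 12 tested members did not pass the test. HSF1, the main heat shock transcription factor, had 189 and 189 CPM with eIF2A siRNA, against 203 and 185 CPM with control siRNA. HSF2, a related factor, had 18.1 and 16.4 CPM with eIF2A siRNA, against 17.3 and 16.8 CPM with control siRNA. For both genes the groups overlapped (log2 fold change -0.04, adjusted p = 0.53 for HSF1, and 0.01, adjusted p = 0.96 for HSF2). Without control siRNA replicate 2, HSF1 (log2 fold change -0.10), STIP1 (0.08), AHSA1 (0.21) and HSPA4L, an HSP110 relative (-0.45), were called among these 12. The share of all genes called with a library left out is not given here. Without control siRNA replicate 1, HSPA9 (-0.10) and HSP90AB1 (0.08) were called, and HSPA4L was called without eIF2A siRNA replicate 2 (-0.51). By family, the HSP70 genes counted 1 higher and 2 lower of 5 tested, the HSP40 genes 3 and 1 of 5, the HSP110 and BAG exchange factors 1 and 2 of 4, HSP90 and its cochaperones 1 and 3 of 8, and the small heat shock proteins 1 and 1 of 3, beside the 14.1% and 14.7% of all genes.

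Of the 18 calls, 12 held in direction and significance under all 18 alternatives. They are the falls of HSPA6, HSPA1B, BAG3, DNAJB1 and HSP90AA1 and the rises of DNAJA2, HSPA4, PTGES3, HSPE1, DNAJB6, SERPINH1 and HSPA8. After removal of a trend with GC content and length, 8 members were higher and 7 lower, where 15% and 12.9% of all genes were called (27.9% in either direction). With DESeq2 5 members were called lower, where it called 9.72% of all genes lower. Replicates differed by a chi-square per degree of freedom of 1.80 with eIF2A siRNA and 4.91 with control siRNA, the highest of the 4 groups. The share of reads in no counted feature was 14.98 and 14.95% with eIF2A siRNA, against 15.59 and 17.68% with control siRNA, and the part of these differences in the results was not tested.

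**Figure D2:**
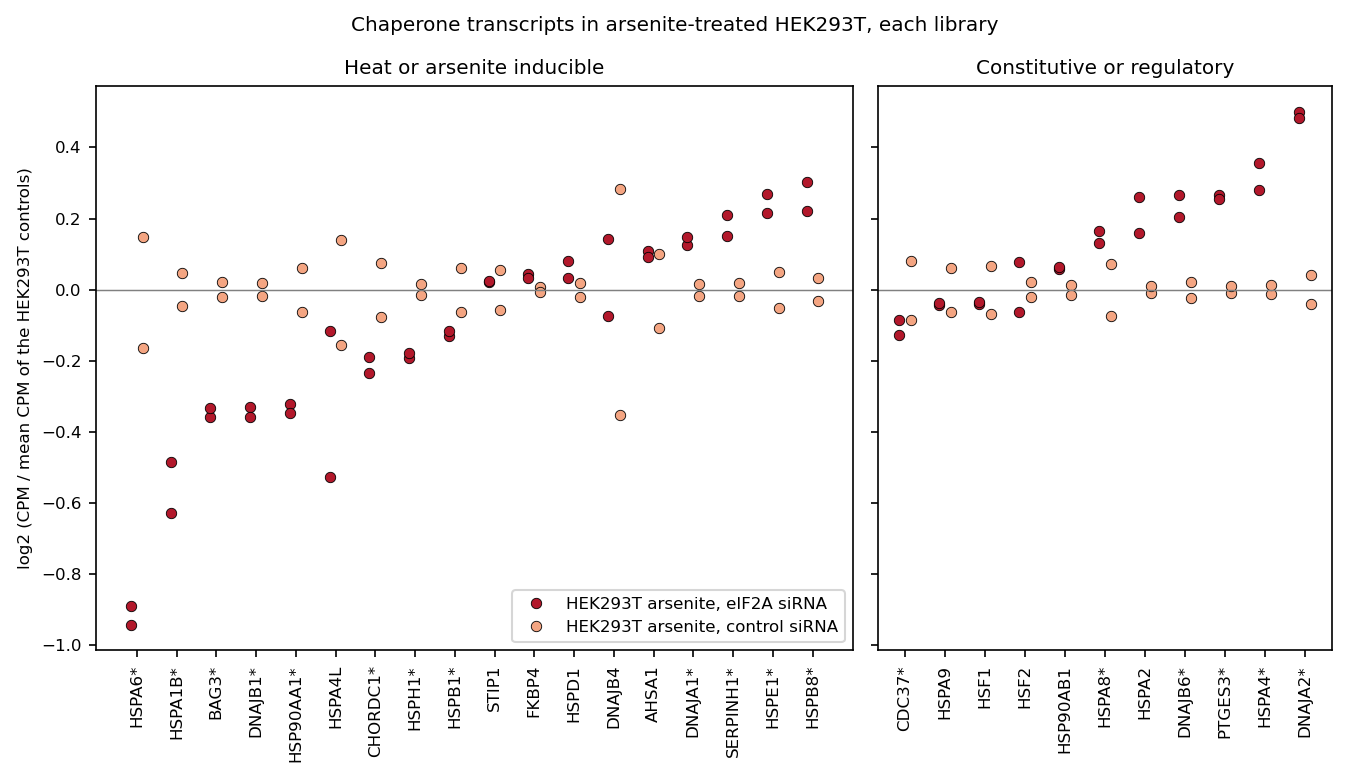
Level of each chaperone transcript in each HEK293T library as log2 of its CPM over the mean CPM of the controls, in panels by class; points are libraries and an asterisk marks a call at an adjusted p under 0.05. CRYAB, with 1 to 4 counts per library, is left out; HSPA6 and HSPA1B lie lowest among the called genes and DNAJA2 highest.

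The H9 libraries address the same question without a named stressor. Of the 30 tested members 16 rose and 11 fell, where 37% of all genes were called higher, 34.3% lower and 71.3% in either direction. The members' median log2 fold change was 0.23, against 0.02 over all genes. Constitutive genes counted 9 higher and 2 lower of 11 (median 0.40) and inducible genes 7 higher and 9 lower of 19 (median -0.16).

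These changes ran along with base composition. Across 14489 genes, which are not independent replicates, Spearman's rho between the H9 log2 fold change and the GC content of the transcript was -0.68, and it was 0.45 with transcript length. In HEK293T both were -0.10. Genes under 45% GC had a median H9 log2 fold change of 0.85, and the 11 members there 0.81. Genes over 55% GC had a median of -0.36, and the 9 members there -0.19. The 16 members that rose in H9 had 33.1 to 56.1% GC (median 43.0%), and the 11 that fell had 50.2 to 64.5% (median 55.2%). The share of reads in no counted feature was 20.84 and 20.63% with eIF2A shRNA, against 18.84 and 18.39% with control shRNA. The part of this difference in the trend was not tested. The H9 values are therefore given beside those from a fit in which the trend with GC content and length was removed, called the adjusted fit here. It left 10 members higher and 9 lower, where 21.1% of all genes were called higher and 29% lower (50.2% in either direction). By class it called 4 constitutive genes higher and 4 lower of 11 (median 0.05) and 6 inducible genes higher and 5 lower of 19 (median 0.08). In the adjusted fit the targeted EIF2A had a log2 fold change of -2.32, against -1.66 as measured, so that fit also moves a gene known to be targeted.

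**Figure D3:**
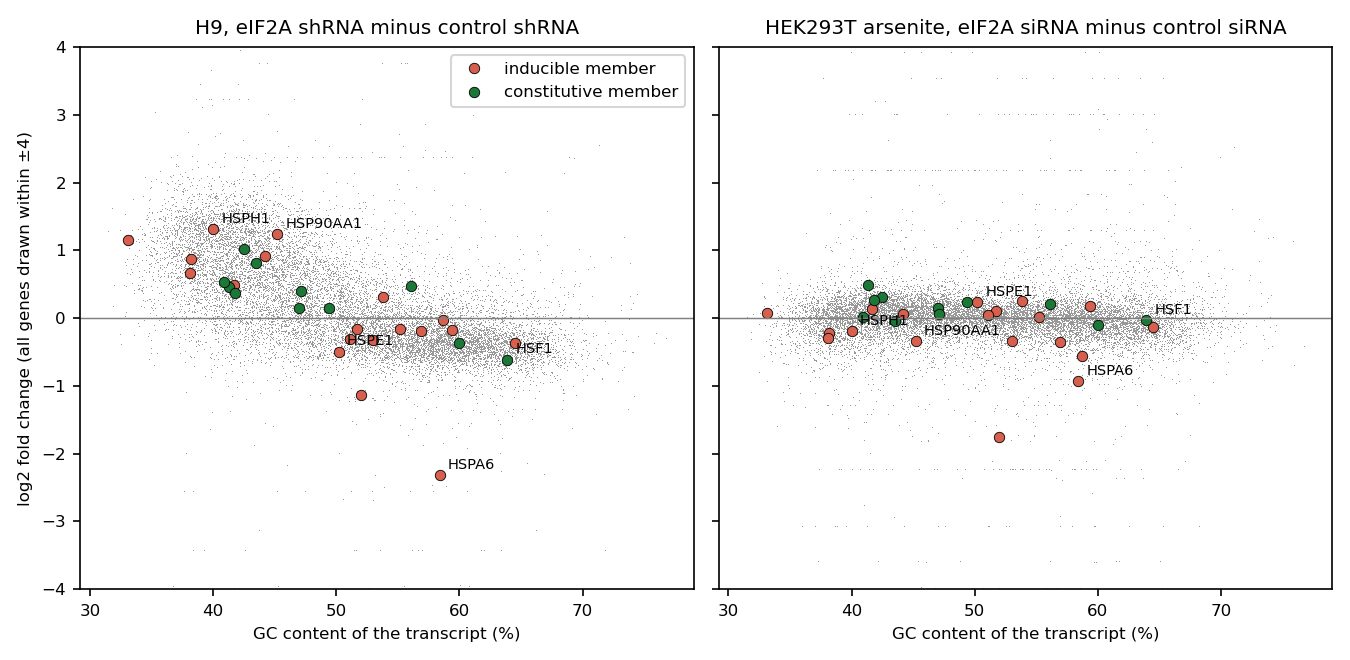
Log2 fold change with eIF2A depletion against the GC content of the transcript (%), for all tested genes with a GC value (small points, drawn within ±4) and for the chaperone genes (large points), in HEK293T and H9 panels. In H9 the genes under 45% GC have a median of 0.85 and those over 55% a median of -0.36; in HEK293T the medians are 0.01 and -0.05.

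Apart from the low-count DNAJB4, the largest rises were those of HSPH1, HSP90AA1 and HSPA4. HSP90AA1 had 362 and 353 CPM with eIF2A shRNA, against 155 and 148 CPM with control shRNA. It stood at 236% of the control, with no overlap (log2 fold change 1.24 ± 0.038 SE, adjusted p = 6.8e-24), and at 0.72 in the adjusted fit, still called. HSPH1 had 39.0 and 39.5 CPM with eIF2A shRNA, against 16.1 and 15.4 CPM with control shRNA. Its log2 fold change was 1.32 ± 0.068 SE (adjusted p = 4.2e-18) and 0.37 in the adjusted fit, still called. HSPA4 had 116 and 115 CPM with eIF2A shRNA, against 56.3 and 58.1 CPM with control shRNA. It rose by 1.02 ± 0.045 SE on the log2 scale (adjusted p = 7.6e-20), and by 0.19 in the adjusted fit, still called.

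HSP90AB1 rose to 2571 and 2513 CPM with eIF2A shRNA, against 1943 and 1912 CPM with control shRNA (log2 fold change 0.40 ± 0.028 SE, adjusted p = 1.1e-14; 0.12 in the adjusted fit, still called). The ratio of HSP90AA1 to HSP90AB1 counts was 0.141 and 0.141 with eIF2A shRNA, against 0.0799 and 0.0775 with control shRNA. CHORDC1 had 12.3 and 12.6 CPM with eIF2A shRNA, against 7.09 and 6.57 CPM with control shRNA (log2 fold change 0.87 ± 0.11 SE, adjusted p = 7.9e-09). In the adjusted fit its value was 0.13 and it was not called. DNAJB4, an HSP40 low in these cells, had 2.90 and 2.97 CPM with eIF2A shRNA, against 1.35 and 1.28 CPM with control shRNA (log2 fold change 1.15 ± 0.25 SE, adjusted p = 0.00012). At 33.1% GC it had the lowest GC content of the called members, and the adjusted fit gave 0.48, not called.

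The paired mitochondrial chaperonin genes moved apart. HSPD1, the mitochondrial HSP60, had 401 and 391 CPM with eIF2A shRNA, against 207 and 211 CPM with control shRNA. HSPE1, its lid, had 179 and 181 CPM with eIF2A shRNA, against 255 and 252 CPM with control shRNA. Both genes' groups were separate, with a log2 fold change of 0.92 ± 0.034 SE for HSPD1 (adjusted p = 3.9e-22) and -0.50 ± 0.036 SE for HSPE1 (adjusted p = 2.8e-14). The adjusted fit gave 0.43 and -0.29, both still called. The ratio of HSPD1 to HSPE1 counts was 2.24 and 2.17 with eIF2A shRNA, against 0.811 and 0.838 with control shRNA. In HEK293T it was 1.38 and 1.39 with eIF2A siRNA, against 1.61 and 1.54 with control siRNA, so the ratio was higher with depletion in H9 and lower with depletion in HEK293T. HSPD1 had 225.5 and 218 CPM with eIF2A siRNA, against 210 and 216 CPM with control siRNA in HEK293T, and did not pass the test there (log2 fold change 0.06, adjusted p = 0.22). HSPA9, the mitochondrial HSP70, had 324 and 311 CPM with eIF2A shRNA, against 182 and 181 CPM with control shRNA in H9. It rose by 0.81 ± 0.037 SE on the log2 scale (adjusted p = 1.8e-19), but the adjusted fit gave 0.05, not called.

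HSF1 fell in H9. It had 129.5 and 129.6 CPM with eIF2A shRNA, against 197 and 199 CPM with control shRNA, or 65.5% of the control (log2 fold change -0.61 ± 0.039 SE, adjusted p = 9e-16). The adjusted fit gave -0.21, still called. HSF2 had 11.1 and 10.1 CPM with eIF2A shRNA, against 8.07 and 6.52 CPM with control shRNA (log2 fold change 0.54 ± 0.12 SE, adjusted p = 0.00010), and -0.15 in the adjusted fit, not called.

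HSPA1B and HSPA6 were low in H9. HSPA1B had 0.966 and 1.06 CPM with eIF2A shRNA, against 1.17 and 0.889 CPM with control shRNA, which overlap, on 18 to 25 counts per library. HSPA6 had 1 and 0 counts with eIF2A shRNA, against 5 and 0 counts with control shRNA, too few to read a difference, although without control shRNA replicate 2 the gene was called lower (log2 fold change -3.25, adjusted p = 0.031). DNAJB1 had 114 and 117 CPM with eIF2A shRNA, against 144 and 144 CPM with control shRNA (log2 fold change -0.32 ± 0.036 SE, adjusted p = 8.9e-10), and -0.17 in the adjusted fit, still called. DNAJB1 thus fell in both lines. BAG3 had 20.4 and 18.8 CPM with eIF2A shRNA, against 22.4 and 22.3 CPM with control shRNA (log2 fold change -0.19 ± 0.068 SE, adjusted p = 0.014). The adjusted fit turned this to 0.08, not called, and BAG3 was also not called without eIF2A shRNA replicate 2 (-0.13) or control shRNA replicate 1 (-0.18). Upper-quartile scaling and a stricter filter on low counts each ended the call as well.

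CRYAB, the small heat shock protein alphaB-crystallin, had 27 and 20 counts with eIF2A shRNA, against 47 and 40 counts with control shRNA. It fell to 45.7% of the control (log2 fold change -1.13 ± 0.28 SE, adjusted p = 0.00053), and the adjusted fit gave -0.82, still called. HSPB1 had 114 and 122 CPM with eIF2A shRNA, against 152 and 153 CPM with control shRNA. It fell as measured (log2 fold change -0.37 ± 0.042 SE, adjusted p = 1.2e-09) and was called higher in the adjusted fit, at 0.23. CDC37 had 313 and 320 CPM with eIF2A shRNA, against 406 and 413 CPM with control shRNA (log2 fold change -0.37 ± 0.039 SE, adjusted p = 2.2e-09), and was called higher in the adjusted fit, at 0.10. FKBP4, the HSP90 immunophilin FKBP52, had 412 and 410 CPM with eIF2A shRNA, against 505 and 516 CPM with control shRNA. Its fall (log2 fold change -0.31 ± 0.030 SE, adjusted p = 3.1e-11) was larger in the adjusted fit, at -0.42.

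HSPA8 had 2342 and 2341 CPM with eIF2A shRNA, against 2100 and 2124 CPM with control shRNA. It was called higher as measured (log2 fold change 0.15 ± 0.033 SE, adjusted p = 0.00018), stood at -0.011 with DESeq2 size factors, and was called lower in the adjusted fit, at -0.12. HSPA2, an HSP70 best known from testis, rose in both fits, by 0.48 and 0.70 on the log2 scale, with 15.5 and 17.6 CPM with eIF2A shRNA, against 10.96 and 12.9 CPM with control shRNA. DNAJA1, DNAJA2 and PTGES3 rose as measured, by 0.49, 0.47 and 0.37 on the log2 scale, and were called lower in the adjusted fit, at -0.14, -0.27 and -0.21. SERPINH1 fell by 0.17 as measured and was called higher in the adjusted fit, at 0.19. DNAJB6 rose by 0.14, but it stood at -0.017 with DESeq2 size factors, at 0.05 and not called in the adjusted fit, and at 0.10 and not called without eIF2A shRNA replicate 2. STIP1, the HSP70 to HSP90 adaptor, and AHSA1, the activator of the HSP90 ATPase, each fell by 0.16 on the log2 scale and were not called in the adjusted fit.

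The members called in the same direction in both fits were HSP90AA1, HSPH1, HSPA4, HSPD1, HSPA2, HSP90AB1 and HSPB8, which rose, and CRYAB, HSF1, HSPE1, DNAJB1 and FKBP4, which fell. Of the other 15 calls, 7 were reversed and called in the adjusted fit (HSPA8, DNAJA1, DNAJA2, PTGES3, HSPB1, SERPINH1 and CDC37), and 8 were not called there. HSPB8 had 32.6 and 31.8 CPM with eIF2A shRNA, against 25.88 and 25.92 CPM with control shRNA (log2 fold change 0.32 ± 0.066 SE, adjusted p = 7e-05), and stood at 0.52 in the adjusted fit. It stood at 0.155 with DESeq2 size factors, still called, and the call was lost with the DESeq2 test (adjusted p = 0.16). Among the HSP40 genes, 4 rose and 1 fell of 5 as measured, beside 37% and 34.3% of all genes, while the adjusted fit called 0 higher and 3 lower, beside 21.1% and 29%.

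**Figure D4:**
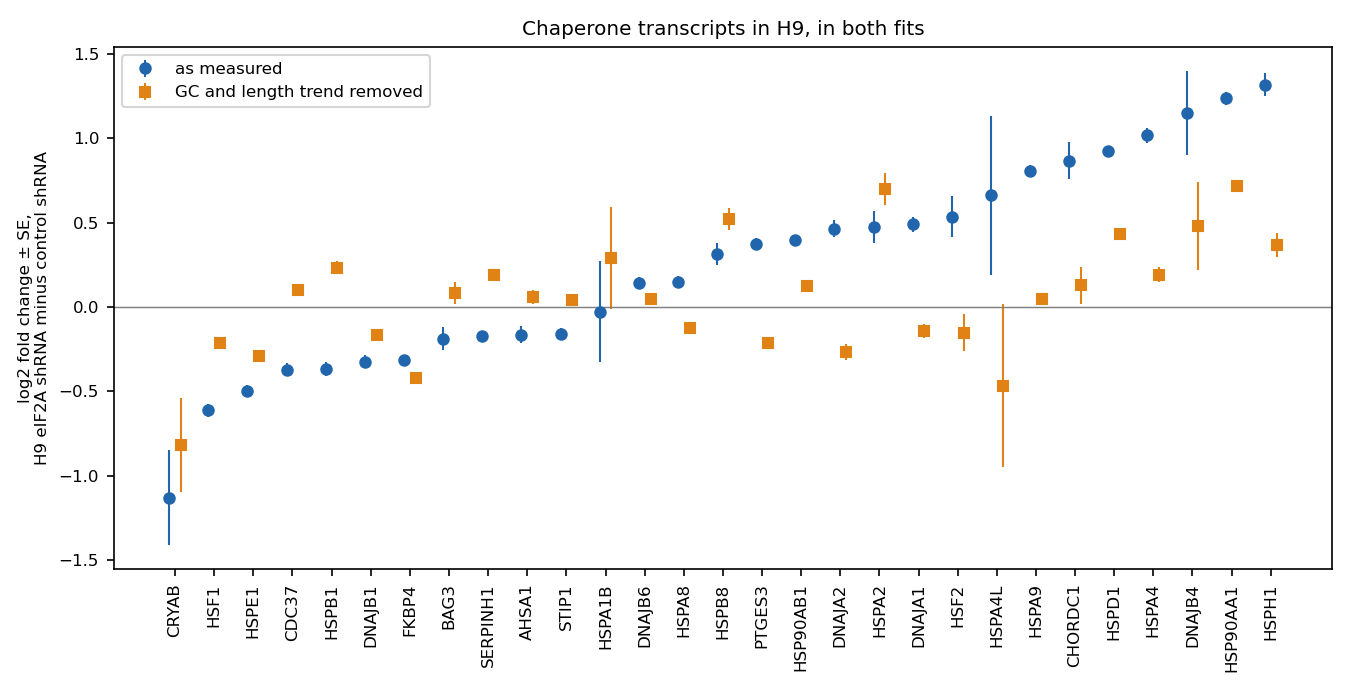
Log2 fold change ± SE of each chaperone transcript in H9, eIF2A shRNA minus control shRNA, as measured and after removal of the trend with GC content and length. HSPA6, with 0 to 5 counts per library, is left out; HSP90AA1 is at 1.24 and 0.72, whereas HSPA9 is at 0.81 and 0.05.

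The effects of depletion were compared between the lines as H9 effect minus HEK293T effect, a contrast that draws on all 8 libraries and so shares its samples with both comparisons above. Of the 30 members 11 were called higher and 8 lower in H9, where 31.1% of all genes were called higher and 27% lower (58.1% in either direction). The adjusted fit called 12 higher and 8 lower, where 17.6% and 25% of all genes were called (42.6% in either direction). Called only in that fit were HSPA1B, HSPA2, DNAJB1, BAG3 and HSPB8, higher in H9, and DNAJA2, HSPA8 and DNAJB6, lower in H9. The difference of DNAJA2 was -0.02 as measured and -0.71 in the adjusted fit. HSP90AA1 differed most, by 1.57 ± 0.053 SE on the log2 scale (adjusted p = 3.2e-22), with a rise in H9 and a fall in HEK293T, and HSPE1 differed by -0.74 ± 0.052 SE (adjusted p = 4.9e-14) with the opposite pattern. In the adjusted fit these differences were 1.11 and -0.47. Reagent, cell line and arsenite all differ between the lines and cannot be told apart. Calls in both lines went the same way for 11 of the 30 members, where they did for 13.9% of all genes: DNAJA1, DNAJA2, DNAJB6, HSPA4, HSPA8, HSPB8 and PTGES3 rose in both, and BAG3, CDC37, DNAJB1 and HSPB1 fell in both. They went opposite ways for 5, where they did for 9% of all genes: HSPE1 and SERPINH1 rose in HEK293T and fell in H9, and CHORDC1, HSP90AA1 and HSPH1 fell in HEK293T and rose in H9. In the adjusted fit the H9 value turned sign for DNAJA1, DNAJA2, HSPA8, PTGES3, BAG3, CDC37 and HSPB1 and, among those with opposite calls, for SERPINH1. With DESeq2 size factors it turned sign for HSPA8 and DNAJB6. That scaling called 10 differences higher and 12 lower, and its share over all genes is not given here. The difference of AHSA1 was -0.17 without control siRNA replicate 1, against -0.26 with all libraries.

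The HEK293T controls under arsenite were also set against the H9 controls, which shows where the members stood without depletion. Line, arsenite and siRNA or shRNA cannot be told apart in this comparison, and it shares its libraries with those above. Of the 30 members 18 were higher in HEK293T and 7 lower, where 41.2% of all genes were called higher and 42.3% lower (83.5% in either direction). The members' median log2 fold change was 0.40, against 0.00 over all genes, and the 19 inducible genes counted 13 higher and 5 lower (median 0.65), against 5 and 2 of 11 constitutive genes (median 0.08). All member and inducible counts here include HSPA6, called higher, and CRYAB, called lower. These passed the filter through HEK293T alone and through H9 alone, so both had to differ. Upper-quartile scaling moved the median over all genes by 0.16 and removal of the GC and length trend by 0.20, so small differences depend on the scaling. The adjusted fit called 22 members higher and 8 lower, where 49.2% and 35.6% of all genes were called (84.8% in either direction).

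Several genes of the inducible HSP70 system were higher. HSPA1B had 12.5 and 13.3 CPM in the arsenite-treated HEK293T controls, against 1.17 and 0.889 CPM in the H9 controls (log2 fold change 3.64 ± 0.17 SE, adjusted p = 1.3e-20). BAG3 had 169 and 174 CPM in the HEK293T controls, against 22.4 and 22.3 CPM in the H9 controls (log2 fold change 2.94 ± 0.051 SE, adjusted p = 1.1e-33). The groups overlapped for neither gene. DNAJB1 had 504 and 517 CPM in the HEK293T controls, against 144 and 144 CPM in the H9 controls (log2 fold change 1.83 ± 0.034 SE, adjusted p = 9.4e-33). HSPA4L had 7.01 and 5.72 CPM in the HEK293T controls, against 0.420 and 0.395 CPM in the H9 controls, which is 9 and 8 counts. Its log2 fold change of 3.93 ± 0.27 SE (adjusted p = 2e-15) thus rests on few counts in H9. HSPA4L is an HSP110 relative best known from testis. HSPA6 had 11.02 and 13.7 CPM in the HEK293T controls, against 0.233 and 0 CPM in the H9 controls, which is 5 and 0 counts. It passed the filter through HEK293T alone and so had to differ between the lines, and no fold change is given for it.

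Among genes that were lower, SERPINH1 had 107 and 104 CPM in the HEK293T controls, against 928 and 951 CPM in the H9 controls (log2 fold change -3.16 ± 0.035 SE, adjusted p = 1.8e-39). CRYAB had 4 and 3 counts in the HEK293T controls, against 47 and 40 counts in the H9 controls, and passed the filter through H9 alone. HSPE1 was lower by 0.90 on the log2 scale and HSPB8 by 1.33. HSF1 had 203 and 185 CPM in the HEK293T controls, against 197 and 199 CPM in the H9 controls, which overlap (log2 fold change -0.03, adjusted p = 0.44). Without control siRNA replicate 1 it was called lower at -0.10, whereas upper-quartile scaling called it higher at 0.13 and the adjusted fit at 0.50.

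Genes of the wider network, from lists that hold no member, were counted in the same way. Of 12 other HSP40 genes 4 rose and 2 fell in HEK293T, of 13 other HSP70 cochaperones 1 rose and 1 fell, of 12 other HSP90 cochaperones 2 rose and 5 fell, and of 13 other genes responsive to arsenite or HSF1 6 rose and 1 fell, beside the 14.1% higher and 14.7% lower over all genes. HMOX1, heme oxygenase 1, which arsenite induces through NRF2 rather than HSF1, had 196 and 196 CPM with eIF2A siRNA, against 127 and 120 CPM with control siRNA. Its log2 fold change of 0.67 ± 0.037 SE (adjusted p = 2.6e-15) had the opposite sign to those of HSPA6 and HSPA1B. HSBP1, an inhibitor of HSF1 trimers, rose by 0.33 ± 0.036 SE on the log2 scale (adjusted p = 1.3e-08). TRAP1, the mitochondrial HSP90, fell by 0.37 and UNC45A, a myosin chaperone that binds HSP90, by 0.30. STUB1, the ubiquitin ligase CHIP that binds HSP70 and HSP90, fell by 0.38, while GRPEL1, the mitochondrial HSP70 exchange factor, rose by 0.21. DNAJC7, which bridges HSP70 and HSP90, rose by 0.35, and DNAJC5, a synaptic vesicle HSP40, by 0.17.

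In H9 the same lists, in that order, counted 7 higher and 4 lower, 6 and 6, 4 and 7, and 2 and 8, beside 37% and 34.3% over all genes. The adjusted fit counted 4 and 5, 2 and 7, 0 and 5, and 4 and 5, beside 21.1% and 29%. DNAJC7 rose there by 0.66 (0.57 in the adjusted fit) and BAG5, an HSP70 exchange factor, by 1.24 (1.05). BAG5 had 32.6 and 33.7 CPM with eIF2A shRNA, against 13.8 and 14.3 CPM with control shRNA. DNAJC13, an endosomal HSP40, rose by 1.63 (0.61), and TXNRD1, thioredoxin reductase, by 0.74 (0.12, not called). TRAP1 fell by 0.57 on the log2 scale, and the adjusted fit gave -0.23. SGTA, a handler of tail-anchored proteins, fell by 0.58 and UBB, a ubiquitin gene, by 0.45, and the adjusted fit gave -0.20 and -0.21. FKBP8, an HSP90-binding immunophilin, fell by 0.50, and the adjusted fit gave -0.07, not called.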

How the data were processed

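Per the labels' protocols, RNA taken up in TRIzol went into TruSeq Stranded mRNA libraries. The submitters' processing notes name cutadapt, STAR 2.5.2b and the build hg19. From these the authors made the raw counts used here, whole numbers for each RefSeq accession without normalization. How reads were counted, and with which strand setting, is not stated, so overlapping antisense genes may share counts. Reads in no feature (14.95 to 20.84%) and reads aligned to more than 1 place (4.11 to 4.54%) were kept out.

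Counts of 14565 genes kept by filterByExpr were scaled by TMM and tested with edgeR 4.0.16 (R 4.3.3) by the robust two-sided quasi-likelihood F test on 4 group means over 8 libraries (4 residual degrees of freedom), with Benjamini-Hochberg adjustment over all tested genes. A call is an adjusted p under 0.05. An exact permutation test of 2 against 2 cannot go below 0.333 and was not used for single genes. The GC and length fit entered splines of 5 degrees of freedom for both, for 14489 genes with reference values, as an offset. Alternatives were DESeq2 1.42.0, its size factors, upper-quartile scaling, limma-voom (limma 3.58.1), other filters, the 4 libraries of a line alone, the set number as a block and each library left out. The procedure was tested on data simulated without a GC or length trend. That test therefore cannot show how well the adjusted fit removes such a trend.

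The members and lists were chosen with earlier results of these data known. Values per library are given for 10 genes fixed by name, and for up to 6 rises and 6 falls per line among called members of at least 1 CPM on average whose groups do not overlap. Values given for other members were chosen after they were seen. From each list of other genes, the 2 with the smallest p per line are named.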

Additional observations from a re-analysis of the deposited data

Results flagged for a closer look

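The effect of eIF2A depletion differed between the lines, by the test of the H9 effect minus the HEK293T effect in edgeR at an adjusted p under 0.05, for 19 of 30 members, where 58.1% of all genes were called. Cell line, arsenite and the reagent differ together between the lines and cannot be told apart, and the GC trend of H9 enters these differences. Values are log2 differences, each followed by the value after removal of the trend with GC content and length. The difference kept its call and direction with the trend removed for HSP90AA1 (1.57, then 1.11), HSPH1 (1.51, then 0.54), CHORDC1 (1.09, then 0.35), HSPD1 (0.87, then 0.43) and HSP90AB1 (0.34, then 0.11), all higher in H9. It also did for HSPE1 (-0.74, then -0.47), HSF1 (-0.58, then -0.23) and FKBP4 (-0.35, then -0.44), all lower in H9. The difference was no longer called for DNAJB4 (1.07, then 0.28), HSPA9 (0.85, then 0.12), HSPA4 (0.70, then -0.11), HSF2 (0.52, then -0.12), SERPINH1 (-0.35, then -0.04), AHSA1 (-0.26, then -0.003) and STIP1 (-0.18, then 0.003). It was called in the opposite direction for DNAJA1 (0.36, then -0.23), PTGES3 (0.11, then -0.42), CDC37 (-0.26, then 0.18) and HSPB1 (-0.24, then 0.34). The call of PTGES3 was also lost without eIF2A siRNA replicate 1 (0.12) or 2 (0.11), control shRNA replicate 1 (0.12) or 2 (0.10), or eIF2A shRNA replicate 2 (0.09). The call of HSP90AB1 was lost with the trend removed and the replicate block together (0.107, adjusted p = 0.085). Without control siRNA replicate 1 the difference of AHSA1 was -0.17.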

How the results depend on the processing

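Members called lower in HEK293T numbered 9, against 5 with DESeq2, 5 at an adjusted p under 0.01 and 5 to 10 with 1 library left out. The count higher in HEK293T was 8 to 11 with 1 library left out, higher in H9 15 to 16, lower in H9 10 to 12, and for the difference 10 to 13 and 8 to 9. Members higher in H9 numbered 16, against 10 with the GC and length trend removed, with or without the replicate block. For left-out libraries, the replicate block, DESeq2 size factors and an adjusted p under 0.01, the share over all genes is not given. The member counts under those settings therefore cannot be set against all genes. Libraries with the same set number showed no shared deviation over all tested genes: the correlation of deviations was -0.02 in HEK293T and 0.00 in H9. Genes were not weighted by their counts and the labels do not say what a set is, so pairing is not excluded. With the replicate block 9 members were higher and 8 lower in HEK293T and 16 and 11 in H9, and the calls of CDC37 in HEK293T and of PTGES3 for the difference were lost. With the block and the trend removed, the calls of HSPH1 in HEK293T (-0.171) and HSP90AB1 for the difference (0.107) were lost. DESeq2 size factors moved the median over all genes by -0.15 in H9. With them and with the DESeq2 test, HSPA8 (-0.011) and DNAJB6 (-0.017) reversed in H9, as did DNAJB1 (-0.135) and PTGES3 (-0.043) for the difference. With the trend removed (the value with the block second where it differs), signs reversed in H9 for HSPA8 (-0.123), DNAJA1 (-0.143), DNAJA2 (-0.266), PTGES3 (-0.212), HSF2 (-0.151), BAG3 (0.084, 0.083), HSPB1 (0.234), STIP1 (0.039), AHSA1 (0.058), SERPINH1 (0.188) and CDC37 (0.102). They reversed for the difference for DNAJA1 (-0.231, -0.232), HSPA4 (-0.108, -0.106), PTGES3 (-0.419), HSF2 (-0.124, -0.117), HSPB1 (0.337, 0.334), STIP1 (0.003, 0.002) and CDC37 (0.175, 0.173). Between the controls of the lines they reversed for HSPA2 (0.365, 0.360), HSPB1 (0.173, 0.171), HSPD1 (-0.091), PTGES3 (-0.173) and HSF1 (0.501, and 0.127 with upper-quartile scaling). The cause was not tested. With 1 library left out, its partner is assumed to vary like the other groups. Few or no counts limit HSPA1A, HSPA1L, CRYAB in HEK293T, and HSPA6 and HSPA4L in H9. The counts of HSPA1A leave out reads shared with HSPA1B, whatever the depth.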
